A study of Chlorocebus sabaeus with 45 samples.

Results

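NR3C1, which encodes the glucocorticoid receptor, and 8 genes that the receptor is known to regulate were followed in whole blood of vervet monkeys (Chlorocebus sabaeus) during relocation and quarantine. The 9 genes were taken by symbol from the deposited tables, which list 33994 genes, and all 9 were among the 18753 genes with enough fragments to be tested. The study placed 15 wild juvenile males from the island of St. Kitts in individual housing and sampled each animal on day 0, day 3 and day 14, which gave 45 libraries with 15 per time point. The labels name no strain, genotype or treatment other than the days of exposure. On day 0 each monkey had just been trapped in the field and was bled under ketamine and xylazine, whereas the later samples were taken in quarantine under dexmedetomidine and midazolam, so that place and sedation cannot be told apart from the change after day 0. There were no animals that stayed in the field as controls, so every comparison is between time points of the same 15 animals. The fit took one mean per time point, and a second fit, blocked by animal (replicate block), is given for the 9 genes and beside those list counts of the text that it changed.

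Cortisol, the main glucocorticoid of primates, is released by the adrenal gland when a stressor activates the hypothalamus and the pituitary. It enters cells and binds the receptor, which is held ready in the cytoplasm by the heat shock protein HSP90 and its partner proteins. The bound receptor moves to the nucleus, where it switches on genes such as FKBP5 and TSC22D3 and holds back inflammatory genes, and blood leukocytes are a common tissue in which this response is read. The samples were labelled whole blood. Markers of neutrophils, monocytes, T cells, B cells, natural killer (NK) cells, reticulocytes and platelets were all detected in the libraries, with only the neutrophil markers S100A12 and CMTM2 listed at 0 in any of them.

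Values are fragment counts per length of gene and per size of library (FPKM), divided by a scale factor for each library (the trimmed mean of M values, TMM), and are called scaled FPKM here. Between 13216275 and 31469332 fragments per library fell on genes, so that each of the 9 genes rested on at least 55 fragments in every library. Log2(scaled FPKM + 0.1) values were compared with limma (SE below is the standard error of a log2 change), with p-values adjusted by Benjamini-Hochberg over all 18753 tested genes and a call at an adjusted p-value under 0.05. Libraries of animal 4 on day 14 and animal 9 on day 0 stood apart, with 31402 and 30752 genes above 0 against at most 26792 in any other library. Calls of the 9 genes and list counts of the text that change without these libraries are given both ways.

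Per length, ANXA1 and TSC22D3 were the most abundant of the 9 genes and ZBTB16 the least. On day 0 the median scaled FPKM was 162 for ANXA1, 158 for TSC22D3, 60.2 for DDIT4, 51.6 for NR3C1, 26.5 for FKBP5, 24.2 for SGK1, 11.01 for CD163, 5.59 for KLF9 and 0.627 for ZBTB16. The ranges over animals of most neighbours in this order overlapped. At every time point, however, the lowest TSC22D3 value was above the highest DDIT4 value, and the lowest KLF9 value was above the highest ZBTB16 value. The order of the medians was the same on day 3 apart from TSC22D3 and ANXA1, which changed places, and on day 14 apart from CD163 and KLF9, which did so with medians of 6.40 and 6.63.

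**Figure D1:**
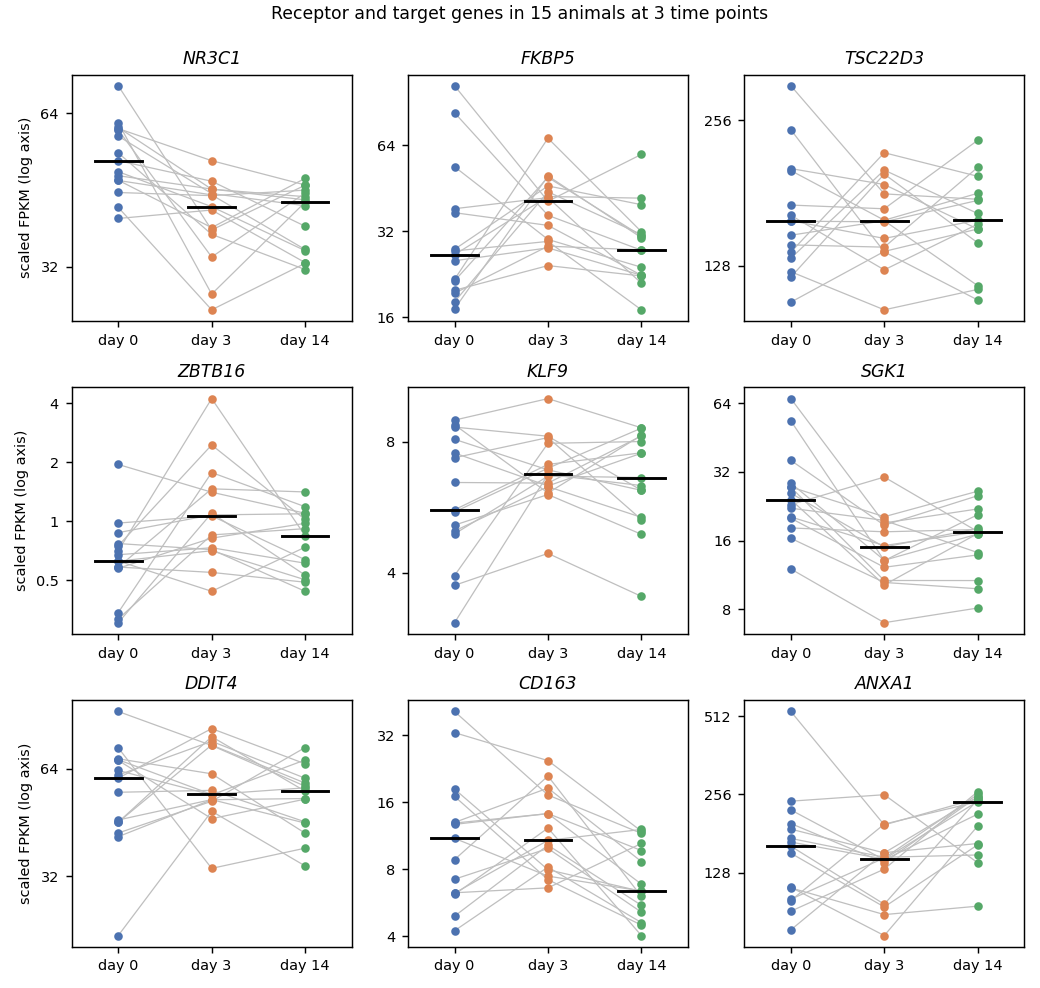
Scaled FPKM (log axis) of the receptor gene and 8 target genes on days 0, 3 and 14. Each point is 1 library, grey lines join the 3 samples of an animal, and black bars are medians over 15 animals. The NR3C1 and SGK1 points lie lower on both later days, with medians of 51.6, 41.9 and 42.8 for NR3C1.

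The receptor gene and SGK1 were lower on both later days than on day 0, and ZBTB16 was higher on day 3. The classical target genes FKBP5, TSC22D3, KLF9 and DDIT4 did not pass the threshold in any comparison with TMM scaling. On day 3 vs. day 0, 3 of the 9 genes were called (ZBTB16 higher, NR3C1 and SGK1 lower), beside 12.2% of all tested genes (6.01% higher and 6.19% lower). On day 14 vs. day 0, 2 of the 9 were called (NR3C1 and SGK1, both lower), beside 36.0% of all tested genes (18.8% higher and 17.3% lower). The share of the 9 genes was 22.2%, all of it lower. These comparisons share the day 0 samples. On day 14 vs. day 3, 0 of the 9 genes were called by limma, beside 13.4% of all tested genes (8.38% higher and 5.01% lower), although CD163, ANXA1 and FKBP5 had unadjusted p-values of 0.00788, 0.00783 and 0.0491. Without the libraries of animal 4 on day 14 and animal 9 on day 0, 2 of the 9 genes were called on day 3 and 2 on day 14 against day 0, and 1 between the later days. Of the 18113 genes tested in that setting, 2259, 7033 and 3439 were called, in the same order. The median log2 fold change of the 9 genes was 0.11, −0.040 and −0.060 in the 3 comparisons, beside 0.0077, −0.021 and −0.021 for all tested genes.

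With animals as a replicate block the background rose to 19.2%, 44.0% and 23.7% of tested genes. The block left the 3 genes on day 3 called, added CD163 on day 14 vs. day 0, and called 2 genes on day 14 vs. day 3, namely CD163 (lower) and ANXA1 (higher). Fold changes on day 14 are relative to the typical gene, because the deposited FPKM without TMM scaling had a median log2 fold change of −0.36 over all tested genes on day 14 vs. day 0. On that unscaled basis 6 of the 9 genes were lower on day 14 than on day 0 and none was higher, with FKBP5 (−0.52), TSC22D3 (−0.45), DDIT4 (−0.46) and CD163 (−1.02) called beside NR3C1 (−0.81) and SGK1 (−1.07). Of all tested genes, 1460 were then higher and 7830 lower, against 3517 higher and 3239 lower with TMM. Between the later days the unscaled values gave 7 of the 9 genes lower (all but SGK1 and ANXA1), beside 606 of all tested genes higher and 6600 lower.

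**Figure D2:**
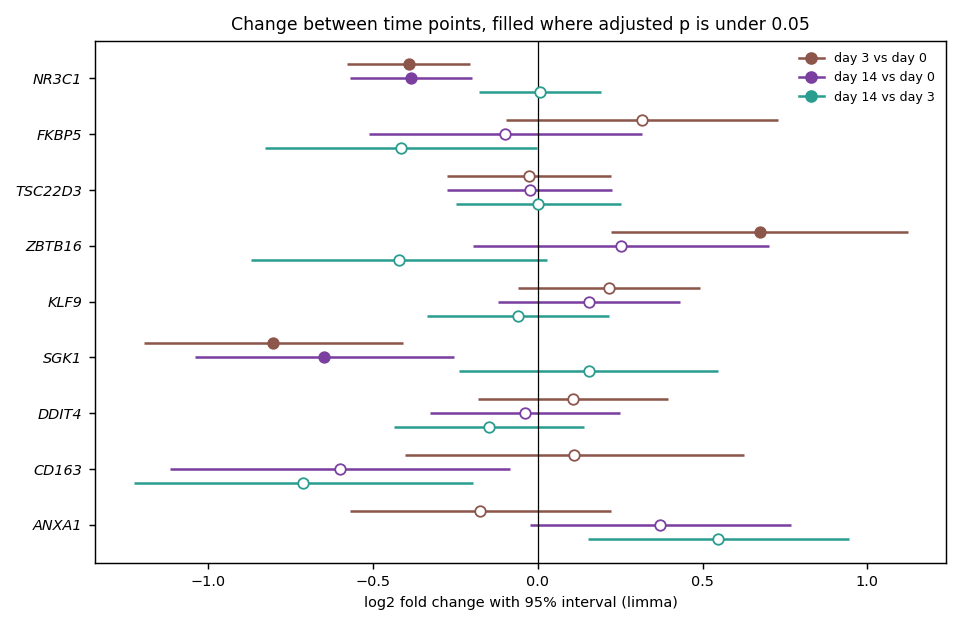
Log2 fold change of each gene with its 95% interval from limma, for the 3 comparisons of time points (15 animals each). Filled points had an adjusted p-value under 0.05. NR3C1 and SGK1 are filled and below 0 in both comparisons with day 0, at −0.39 and −0.38 for NR3C1.

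NR3C1 had a narrow range on day 0, from 39.8 to 72.5 scaled FPKM with a median of 51.6. On day 3 its lowest, median and highest values were 26.3, 41.9 and 51.6, and on day 14 they were 31.6, 42.8 and 47.7. The ranges overlapped, but all 15 samples of day 3 and all 15 of day 14 were below the median of day 0, and on each day 6 of them were below its lowest sample. The mean went from 52.9 ± 8.77 (SD, n = 15) on day 0 to 40.4 ± 7.01 on day 3, a log2 fold change of −0.39 (SE 0.092, limma adjusted p = 0.00478), and was lower in 14 of 15 animals. On day 14 the mean was 40.4 ± 5.78 (log2 change of −0.38, SE 0.092, limma adjusted p = 0.00105), lower in 13 animals. The level was thus 1.31-fold lower on both days, and 12 animals were lower on both. Day 14 and day 3 differed by 0.0069 on the log2 scale, with a 95% interval from −0.18 to 0.19. The deepest falls were 1.12 in animal 8 on day 3 and 0.76 in animal 15 on day 14, both as log2 differences from day 0. The call on day 3 rested on the scaling, since without TMM the fold change was −0.43 with an adjusted p-value of 0.0508. Counts were summed over the gene and do not separate its splice forms.

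SGK1 encodes a kinase that glucocorticoids and mineralocorticoids induce and that acts on ion channels and on cell survival. Its values ran from 12.02 to 67.0 scaled FPKM on day 0 (median 24.2), from 6.995 to 30.4 on day 3 (median 14.99) and from 8.11 to 26.3 on day 14 (median 17.5). The lowest sample at each time point came from animal 2, and 4 samples on day 3 and 3 on day 14 were below the lowest of day 0. SGK1 had the largest called fall of the 9 genes. The mean went from 28.1 ± 14.4 to 15.5 ± 5.73 on day 3 (log2 change of −0.80, SE 0.19, limma adjusted p = 0.00611), lower in 14 of 15 animals. On day 14 it was 17.1 ± 5.23 (−0.65, SE 0.19, limma adjusted p = 0.00800), lower in 15 of 15 animals. In 14 animals it was lower on both days. Taking the animal into account lowered the standard error from 0.19 to 0.13. With the RNA integrity number of each sample as a covariate the log2 fold change on day 14 was −0.25 (adjusted p-value 0.432), and with covariate and replicate block together it was −0.45 and passed the threshold. In the study's list this number was equal or higher on day 14 than on day 0 in every animal. The covariate thus overlaps with the time point.

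FKBP5, the co-chaperone that the receptor induces and that in turn lowers the receptor's affinity for cortisol, differed widely between animals before relocation. On day 0 its values ran from 17.1 scaled FPKM in animal 9 to 103 in animal 15, a 6.03-fold range around a median of 26.5. Animals 11 and 7 came next at 83.04 and 53.8, and no other animal was above 38.4 on that day. The day 0 libraries of animals 15, 11 and 7 also had the highest means of the neutrophil and monocyte markers of that day. The part of those cells in the FKBP5 range was not tested. On day 3 the lowest, median and highest values were 24.3, 40.7 and 67.7, and on day 14 they were 17.0, 27.5 and 59.4. On day 3, 14 of 15 samples were above the day 0 median, and the groups overlapped throughout. The means were 36.0 ± 25.4, 39.5 ± 11.3 and 30.0 ± 10.6. None of the changes passed the threshold with TMM scaling: the log2 fold change was 0.32 on day 3 (limma adjusted p = 0.343, higher in 11 animals), −0.10 on day 14 vs. day 0 (adjusted p = 0.742) and −0.42 on day 14 vs. day 3 (adjusted p = 0.161). In the last comparison FKBP5 was lower in 14 of 15 animals, and its 95% interval was −0.83 to −0.00169, while without TMM it was −0.80 (adjusted p = 0.00256). The largest individual changes from day 0 to day 3 were a rise of 1.64 on the log2 scale in animal 2 and a fall of 1.34 in animal 15.

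ZBTB16 encodes a zinc finger transcription factor, also called PLZF, that glucocorticoids induce in many cell types. It was the least abundant of the 9 genes, with 55 to 813 fragments per library. Its values ran from 0.304 to 1.95 scaled FPKM on day 0 (median 0.627), from 0.439 to 4.22 on day 3 (median 1.06) and from 0.439 to 1.41 on day 14 (median 0.844). Of the day 3 samples, 13 were above the day 0 median and 2 above its highest value, the highest of all being that of animal 2. The mean went from 0.710 ± 0.392 to 1.29 ± 0.964 on day 3 (log2 change of 0.67, SE 0.22, limma adjusted p = 0.0393), higher in 11 of 15 animals. It was 0.833 ± 0.296 on day 14, with a log2 fold change from day 0 of 0.25 (adjusted p = 0.397). The day 3 call was not stable. With 1 animal left out at a time its adjusted p-value lay between 0.0278 and 0.101 and it was called in 8 of 15 cases, and it was lost without animals 2, 3, 5, 6, 7, 8 or 9. It was also lost when only the libraries of animal 4 on day 14 and animal 9 on day 0 were left out (0.60, adjusted p = 0.0696). A larger added constant of 1 gave a change of 0.36 (adjusted p = 0.0502), and the call was also lost without TMM, with no filter and with only the time points compared. The replicate block by animal gave an adjusted p-value of 0.0140.

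TSC22D3, which encodes the leucine zipper protein GILZ that carries part of the anti-inflammatory action of glucocorticoids, did not pass the threshold in any comparison with TMM scaling. Its medians were 158 scaled FPKM on day 0, 159 on day 3 and 159 on day 14, with ranges of 108 to 302, 104 to 219 and 109 to 233. The log2 fold changes were −0.026 on day 3 and −0.024 on day 14 vs. day 0 (limma adjusted p = 0.930 and 0.899), with 95% intervals of −0.28 to 0.22 and −0.27 to 0.23. These intervals leave room for a rise or a fall of that size.

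KLF9, a Krüppel-like transcription factor, and DDIT4, also called REDD1, an inhibitor of the growth kinase complex mTORC1, are further induced targets. KLF9 ran from 3.07 to 8.98 scaled FPKM on day 0 (median 5.59), from 4.44 to 10.1 on day 3 (median 6.73) and from 3.53 to 8.62 on day 14 (median 6.63), and 14 of 15 samples of day 3 were above the day 0 median. Its log2 fold change was 0.22 on day 3 (95% interval −0.059 to 0.49, limma adjusted p = 0.328) and 0.16 on day 14 vs. day 0 (−0.12 to 0.43, adjusted p = 0.392). DDIT4 ran from 21.8 to 92.6 (median 60.2), from 33.6 to 82.9 (median 54.2) and from 34.2 to 73.3 (median 55.4), with log2 fold changes against day 0 of 0.11 (−0.18 to 0.40) and −0.040 (−0.33 to 0.25). With TMM scaling neither gene passed the threshold, and the time points of each overlapped. Without it KLF9 was at −0.44 on day 14 vs. day 3 (adjusted p = 0.0186) and, with the sign turned, at −0.26 on day 14 vs. day 0 (adjusted p = 0.132). DDIT4 was then at −0.53 (adjusted p = 0.00795) and −0.46 (adjusted p = 0.0106). The lowest KLF9 value on day 0, 3.07, was that of animal 9, and without the libraries of animal 4 on day 14 and animal 9 on day 0 its log2 fold change was 0.14 on day 3 and 0.084 on day 14.

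CD163 is the scavenger receptor by which monocytes and macrophages take up haemoglobin bound to haptoglobin, and ANXA1 encodes the anti-inflammatory protein annexin A1. With TMM scaling, CD163 and ANXA1 had the largest differences of the 9 genes between the 2 quarantine samples, which shared housing and sedation. The differences missed the threshold in the fit without the block and passed it with the block and under several other settings. CD163 ran from 4.24 to 40.8 scaled FPKM on day 0 (median 11.01), from 6.61 to 24.6 on day 3 (median 10.8) and from 4.04 to 12.1 on day 14 (median 6.40). On day 14, 8 of 15 samples were below the lowest sample of day 3. The log2 fold change on day 14 vs. day 3 was −0.71 (SE 0.26, limma adjusted p = 0.0548), lower in 13 of 15 animals, and with the replicate block the adjusted p-value was 0.0101. Against day 0 it was −0.60 (limma adjusted p = 0.0614, or 0.0132 with the block), lower in 11 animals, and with RNA integrity number and replicate block together it was −0.58 (adjusted p = 0.107). On day 3 vs. day 0 the fold change was 0.11 (adjusted p = 0.839).

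ANXA1 had its highest median on day 14. Its values ran from 77.2 to 533 scaled FPKM on day 0 (median 162), from 73.4 to 255 on day 3 (median 144) and from 95.2 to 262 on day 14 (median 240). The day 0 value of animal 11, 533, was above every other sample, the next highest of any day being 262. The mean went from 144 ± 47.0 on day 3 to 208 ± 52.5 on day 14, higher in 14 of 15 animals, with a log2 fold change of 0.55 (SE 0.20, limma adjusted p = 0.0546). The adjusted p-value was 0.0207 with the replicate block, and 0.0262 without the libraries of animal 4 on day 14 and animal 9 on day 0. Without TMM scaling the log2 fold change on day 14 vs. day 3 was 0.16 (adjusted p = 0.536), and with RNA integrity number and replicate block it was 0.43 (adjusted p = 0.121). On day 14 vs. day 0 it went from 0.37 to −0.053 without TMM, and in neither case did it pass the threshold.

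The spread between animals was widest on day 0 for 7 of the 9 genes and on day 3 for NR3C1 and ZBTB16. On day 0 the standard deviation of the log2 values was 0.95 for CD163, 0.79 for FKBP5, 0.70 for ANXA1 and 0.62 for SGK1, against 0.24 for NR3C1. On day 14 it was 0.54, 0.45, 0.43, 0.48 and 0.21 for the same genes. Single libraries stood at the ends of several genes. Animal 11 on day 0 had the highest value of the day for 4 of the 9 genes and animal 2 on day 3 for 4. Animal 9 on day 0 had the lowest value for 4 genes and animal 10 on day 3 for 5.

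The 9 genes were also compared with each other over the 45 samples. Of the 36 pairs among the 9 genes, 6 had a Pearson r above 0.5 on the log2 scale. These were 0.70 for FKBP5 and CD163, 0.67 for FKBP5 and KLF9, 0.66 for FKBP5 and ZBTB16, 0.63 for NR3C1 and SGK1, 0.63 for TSC22D3 and KLF9, and 0.61 for ZBTB16 and KLF9. NR3C1 and FKBP5 had an r of −0.081. After the mean of each time point was removed, NR3C1 and SGK1 had an r of 0.45 and FKBP5 and CD163 one of 0.69. The samples come 3 to an animal and share library scaling and cell composition, so the correlations are descriptions without a test.

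**Figure D3:**
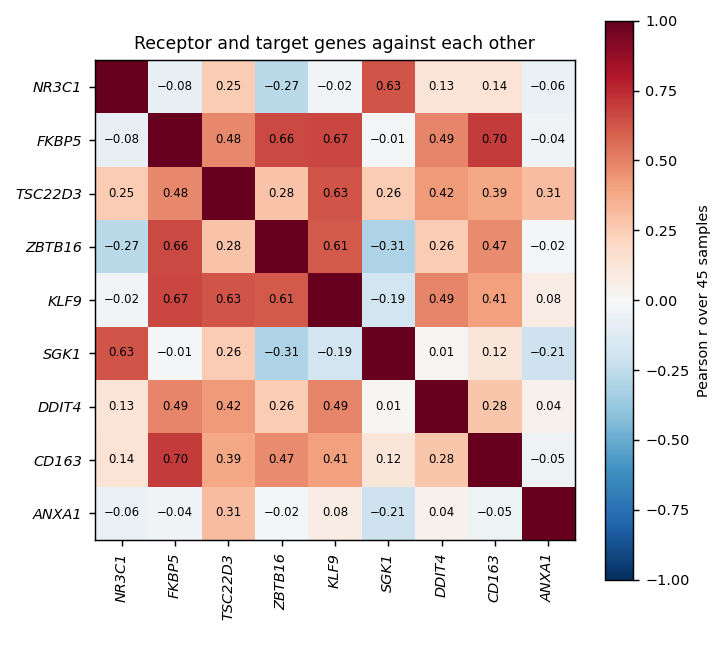
Pearson r between the log2 values of the 9 genes over 45 samples. Red cells are positive and blue cells negative. The highest r is 0.70, for FKBP5 and CD163, TSC22D3 has its highest r, 0.63, with KLF9, and NR3C1 has its highest, also 0.63, with SGK1.

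Among 10930 genes with a mean of at least 5 CPM (counts per library size), those most like NR3C1 over the 45 samples were PTAR1 (r = 0.91) and FBXO33 (0.90). FKBP5 was most like ANKS1A (0.79) and ADAM19 (0.77). ADAM19 and NRP1 (both 0.70) were most like ZBTB16. TSC22D3 was most like SAT1 (0.81) and HERPUD1 (0.76), KLF9 most like PRDM1 (0.71) and TMEM140 (0.68), and SGK1 most like CERS6 (0.77) and EIF2AK3 (0.72). DDIT4 had no close partner, RNF34 (0.55) and CXCR4 (0.50) being the nearest. CD163 was most like KCTD12 (0.88) and LOC103234994 (0.87), and ANXA1 most like PSMA4 (0.90) and TMCO1 (0.89).

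Markers of blood cell types moved over the same samples. Of 13 neutrophil markers, 6 were lower on day 3 and 12 on day 14 vs. day 0, and none was higher, beside 6.19% and 17.3% of all tested genes lower. The mean difference of the list from day 0 was −1.10 on the log2 scale on day 3 (lower in 10 of 15 animals) and −1.36 on day 14 (lower in 14). The summed neutrophil level ran from 1273 to 42738 scaled FPKM on day 0, from 544 to 6937 on day 3 and from 525 to 4254 on day 14. All 9 reticulocyte markers were higher on day 14, and their sum had a median of 4481 on day 0 and 33469 on day 14. All 7 platelet markers were higher on day 3, and 5 of 7 NK cell markers were higher on day 14, beside 6.01% of all tested genes higher on day 3 and 18.8% on day 14.

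Of the 9 monocyte markers, 3 were higher on day 3 and 2 lower on day 14 vs. day 0, and 2 were lower on day 14 vs. day 3 (CD14 and CD68, named after their values were seen). The monocyte sum ran from 806 to 7853 scaled FPKM on day 0, from 808 to 2599 on day 3 and from 893 to 2522 on day 14. Of 8 T cell markers, 1 was lower on day 3 and 1 was higher on day 14 vs. day 0. Of 6 B cell markers, 1 was lower on day 14 vs. day 0, and 3 were lower than on day 3. With the replicate block, 8 neutrophil markers and 1 monocyte marker were lower on day 3. In that fit 3 monocyte and 2 B cell markers were lower and 4 T cell markers higher on day 14 vs. day 0. It also had 5 monocyte and 4 B cell markers lower on day 14 than on day 3. Of all tested genes the block called 19.2%, 44.0% and 23.7% in these comparisons. Without the libraries of animal 4 on day 14 and animal 9 on day 0, 7 neutrophil markers were lower on day 3, 2 monocyte markers were higher and 1 lower, and on that day limma called 0 of the T cell markers (2 had an unadjusted p-value under 0.05 with these libraries included). In the same setting 3 monocyte markers were lower on day 14 in both comparisons, and 4 B cell markers were lower than on day 3. Without TMM scaling the monocyte list had 0 higher and 1 lower on day 3, and the T cell list 0 higher and 2 lower on day 14 vs. day 0. The B cell list then had 5 lower against day 0 and 5 against day 3 on day 14, and the monocyte list 4 and 6. Of all 18753 tested genes, 7830 and 6600 were lower in these comparisons without TMM. The T cell counts against day 0 were close to or below the share of all tested genes called (12.2% on day 3 and 36.0% on day 14 with TMM). On day 14 vs. day 3, 2 of 8 T cell markers were higher (3 with the replicate block), beside 8.38% of all tested genes higher. The mean of that list was higher in 13 of 15 animals. Without TMM scaling 0 of these markers were higher and 2 lower in that comparison. Over the 45 samples CD163 had an r of 0.86 with the mean of the monocyte markers, and FKBP5 one of 0.60. With the neutrophil markers r was 0.56 for TSC22D3, 0.51 for SGK1, 0.50 for CD163, 0.48 for FKBP5 and 0.48 for NR3C1. With the T cell markers it was −0.66 for CD163, −0.58 for TSC22D3 and −0.57 for FKBP5, and with the platelet markers 0.57 for KLF9. The part of these markers in the changes of the 9 genes was not tested. In bulk blood, fewer cells of a type and less RNA per cell cannot be told apart.

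**Figure D4:**
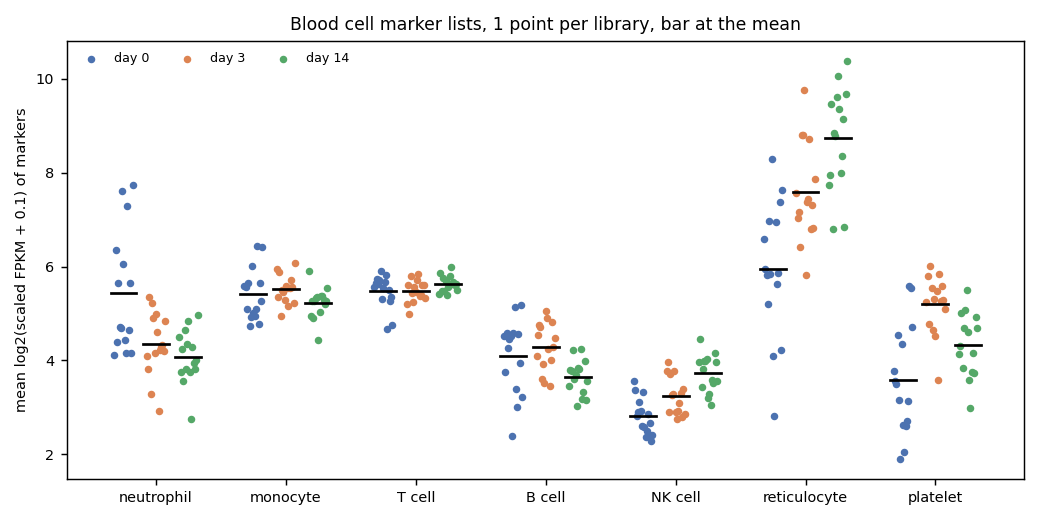
Mean log2(scaled FPKM + 0.1) of 7 blood cell marker lists, with 1 point per library in the 3 time points and a bar at the mean of 15 libraries. The neutrophil mean goes from 5.44 on day 0 to 4.35 on day 3 and 4.08 on day 14, and the reticulocyte mean from 5.95 to 7.58 and 8.74.

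Other genes that glucocorticoids induce were more often lower than higher. Of the 32 tested genes on this list, 2 were higher and 5 lower on day 3, and 2 were higher and 15 lower on day 14 vs. day 0 (0 and 8, and 2 and 17, without the libraries of animal 4 on day 14 and animal 9 on day 0), beside 6.01% of all tested genes higher and 6.19% lower on day 3 and 18.8% higher and 17.3% lower on day 14. Without those libraries 947 of all 18113 tested genes were higher and 1312 lower on day 3, and 3297 higher and 3736 lower on day 14. With the replicate block the calls were 12 on day 3 (10 lower) and 19 on day 14 (17 lower), beside 19.2% and 44.0% of all tested genes. Without TMM scaling 0 were higher and 8 lower on day 3, 0 and 22 on day 14, and 0 and 19 between the later days. Of all 18753 tested genes, 710, 1460 and 606 were then higher and 886, 7830 and 6600 lower, in the same order. The median log2 fold change of the list on day 14 was −0.43, against −0.021 for all tested genes. BCL6, a transcriptional repressor, fell from 25.3 ± 20.9 to 6.91 ± 3.31 scaled FPKM on day 14 (log2 change of −1.59, SE 0.30, limma adjusted p = 7.73e-05) and was lower in 14 of 15 animals. TLE3, a corepressor, fell by 1.08 on the log2 scale and ZFP36, which promotes decay of inflammatory mRNAs, fell by 0.99, each in 13 animals. DUSP1, the phosphatase that switches off MAP kinases, fell by 0.94 on day 14 (adjusted p = 0.00404). In contrast, PER1, a clock gene that the receptor induces directly, rose on day 3 from 1.11 ± 0.399 to 1.86 ± 1.02 (log2 change of 0.62, SE 0.22, limma adjusted p = 0.0484), higher in 13 of 15 animals. That call was held by a small margin, since it was lost without any of animals 2 to 9 or 11 to 13 (adjusted p of up to 0.125) and, when only the libraries of animal 4 on day 14 and animal 9 on day 0 were left out, was 0.59 with an adjusted p of 0.0683. VSIG4, a macrophage complement receptor named after its values were seen, was the other rise on day 3 (0.84), and the falls on that day were those of BCL6, TLE3, ZFP36, TXNIP and RGS2, the last 2 named on the same ground. The BCL6 fall on day 3 was not called with the RNA integrity number as covariate (−0.93, adjusted p = 0.0547), nor that of TLE3 without animal 11 (adjusted p = 0.0518). The rises on day 14 were those of MT1X, a metallothionein, and GLUL, glutamine synthetase (0.90 and 0.65, both named after their values were seen). On day 14 vs. day 3, limma called 0 of the 32 genes (6 had an unadjusted p-value under 0.05), and 5 with the replicate block (1 higher and 4 lower). Of all tested genes 13.4% were called in that comparison, and 23.7% with the block. Some genes of this list, such as IL1R2 and CXCR4, are known in neutrophils, whose markers fell over the same samples, and the part of those cells was not tested.

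Genes that glucocorticoids repress in immune cells split into rises and falls. Of 13 tested genes, 1 was higher and 3 lower on day 3, beside 12.2% of all tested genes called, and 4 were higher and 4 lower on day 14 vs. day 0, beside 18.8% higher and 17.3% lower. With the replicate block 7 were called on day 3 (3 higher and 4 lower) and 8 on day 14, beside 19.2% and 44.0% of all tested genes. Without the libraries of animal 4 on day 14 and animal 9 on day 0, 11 of these genes were tested, with 1 higher and 4 lower on day 3, 3 higher and 4 lower on day 14, and 2 higher on day 14 than on day 3. Of all 18113 genes tested then, 2259, 7033 and 3439 were called, in the same order. IL1B, the inflammatory cytokine interleukin-1 beta, fell by 1.08 on the log2 scale on day 3 and by 1.06 on day 14 (limma adjusted p = 0.0115 and 0.00339). ICAM1, an adhesion molecule for leukocytes, rose from 3.25 ± 1.28 to 6.24 ± 1.49 on day 3 and to 9.82 ± 5.17 on day 14 (log2 change of 1.51, SE 0.19, limma adjusted p = 5.22e-07), and was higher in 15 of 15 animals on both days. CCL5, a chemokine made by T and NK cells, rose by a log2 fold change of 1.34 on day 14 and IFNG, interferon gamma, by 1.16, each in 14 animals. With the RNA integrity number as covariate CCL5 was at 0.74 (adjusted p = 0.0882) and IL1B at −0.90 (adjusted p = 0.0555) on day 14. Between the later days limma called IFNG of this list (0.79, limma adjusted p = 0.0294), and with the replicate block it called IFNG, ICAM1 (adjusted p = 0.0298) and CCL5 (adjusted p = 0.0475), all higher. The IFNG call was lost without animal 1, 3, 5, 8, 12 or 13, without TMM scaling (0.47, adjusted p = 0.156) and with the integrity number as covariate (0.63, adjusted p = 0.106). The other genes called were CXCL8 and PTGS2 (lower on both days) and, on day 14, CCL3 (higher) and TLR4 (lower), all 4 named after their values were seen. Over the same samples the mean of the NK cell markers was higher by 0.91 on the log2 scale on day 14 vs. day 0 (14 of 15 animals) and by 0.48 on day 14 vs. day 3 (15 of 15), and the mean of the neutrophil markers was lower as given above. Without TMM scaling 4 NK cell markers were higher on day 14 vs. day 0. Between the later days 0 were then called, with a median log2 fold change of −0.0081. The part of NK cells and neutrophils in the changes of the list was not tested.

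**Figure D5:**
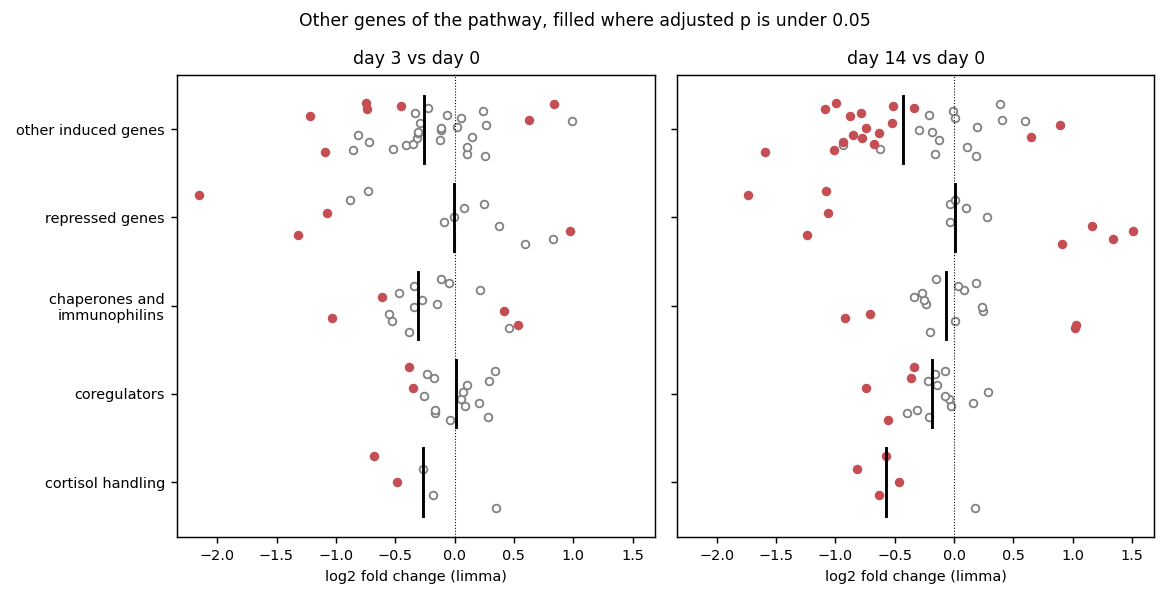
Log2 fold change of each tested gene on 5 lists of the glucocorticoid pathway on day 3 (left) and day 14 (right) vs. day 0. Filled points had an adjusted p-value under 0.05 from limma and bars are list medians. On day 14 the median of the other induced genes is −0.43 and that of the repressed genes 0.0087.

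Of 16 tested chaperones and immunophilins, which hold the receptor in its binding state, 2 were higher and 2 lower on each of days 3 and 14 vs. day 0, beside 12.2% and 36.0% of all tested genes called. With the replicate block 7 were called on day 3 and 5 on day 14, beside 19.2% and 44.0% of all tested genes. Without TMM scaling 2 were higher and 9 lower on day 14, beside 1460 higher and 7830 lower of all 18753 tested genes. CDC37, a kinase co-chaperone of HSP90, rose from 40.5 ± 9.67 scaled FPKM to 59.2 ± 16.5 on day 3 and 84.1 ± 24.5 on day 14 (log2 change of 1.03, SE 0.15, limma adjusted p = 2.11e-06), higher in 14 of 15 animals on day 14. Its day 3 call was lost with the RNA integrity number as covariate (0.45, adjusted p = 0.0547). BAG1, a cofactor of HSP70 that binds the receptor, rose by a log2 fold change of 1.02 on day 14, and both genes were also higher on day 14 than on day 3, calls that were lost without animal 3, 8, 9, 12 or 14, without TMM scaling and with the RNA integrity number as covariate. HSPA8 (lower) and HDAC6 (higher), called on day 3, were named after their values were seen, and HDAC6 was also called on day 14 with the replicate block (adjusted p = 0.0303). DNAJB1, an HSP40 protein, fell by 1.03 on day 3 and by 0.92 on day 14. FKBP4, the immunophilin that favours nuclear transport of the receptor and competes with FKBP5, went from 37.2 ± 48.6 to 16.7 ± 4.62 on day 14 (log2 change of −0.71, SE 0.23, limma adjusted p = 0.0151), lower in 11 animals.

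Of 16 tested coregulators of the receptor, 2 were lower on day 3 (NCOA3 and TRIM24), a share of 12.5% beside 12.2% of all tested genes called. On day 14 against day 0, 4 were lower, beside 36.0% of all tested genes called and 17.3% lower, and 3 were lower on day 14 than on day 3, beside 5.01% of all tested genes. None was called higher by limma with or without the replicate block. NCOA3, a coactivator that binds nuclear receptors, went from 60.5 ± 17.6 to 35.4 ± 5.70 on day 14 (log2 change of −0.74, SE 0.11, limma adjusted p = 3.41e-06), lower in 15 of 15 animals, while its fall of 0.35 on day 3 was not called without animal 2, 7 or 11, without TMM scaling or with the RNA integrity number as covariate. NRIP1, a corepressor, and TRIM24, a nuclear receptor cofactor, fell by 0.37 and 0.34 on day 14, and with the integrity number as covariate TRIM24 was at −0.24 (adjusted p = 0.140). ARID1A (day 14 against day 0) and CARM1 and SMARCA4 (day 14 against day 3) were also lower and were named after their values were seen. The CARM1 call (adjusted p = 0.0499) was lost with the replicate block (0.0520), which called ARID1A in that comparison instead (0.0451). Without TMM scaling, 13 of the 16 were lower on day 14 than on day 0 and 13 lower than on day 3. Of all 18753 tested genes, 7830 and 6600 were then lower.

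Of the 5 tested genes that handle cortisol or encode a related receptor, 2 were lower on day 3 (HSD11B1 and POMC) and 4 on day 14 vs. day 0 (these and NR3C2 and H6PD), beside 6.19% and 17.3% of all tested genes lower. POMC, the precursor of the pituitary hormone ACTH, was named after its values were seen. NR3C2, which encodes the mineralocorticoid receptor that also binds cortisol, went from 3.62 ± 0.938 scaled FPKM on day 0 to 2.99 ± 0.883 on day 3 and 2.04 ± 0.731 on day 14. Its log2 fold change was −0.27 on day 3 (limma adjusted p = 0.275) and −0.81 on day 14 (SE 0.16, limma adjusted p = 7.47e-05), lower in 14 animals. It was lower on day 14 than on day 3 in 15 of 15 animals (−0.54, adjusted p = 0.0200), and with the RNA integrity number as covariate this difference was −0.42 (adjusted p = 0.0829). H6PD, which supplies cofactor to the cortisol-regenerating enzyme, fell by 0.63 on day 14, and with the integrity number as covariate it was at −0.44 (adjusted p = 0.160), or −0.40 with the replicate block as well (0.232). HSD11B1, that enzyme, was barely detected, at 0.142 ± 0.104 scaled FPKM on day 0 and 0.0684 ± 0.0391 on day 14 (−0.46, adjusted p = 0.0107), and the 0.1 added before the logarithm understates its change. Its call on day 3 was lost without animal 2 or 7, and on both days it was lost with the integrity number as covariate (adjusted p = 0.0608 and 0.114). Blood cell markers moved over the same samples. Their part in the changes of this list, the chaperones and the coregulators was not tested.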

How the data were processed

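Total RNA of PAXgene blood was made into stranded, ribosomal RNA- and globin-depleted libraries and sequenced as paired ends. The submitters' processing notes name bcl2fastq 2.17, STAR and HTSeq, and the study gives the genome build as Chlorocebus_sabeus 1.1. How the FPKM deposited by the authors were made from counts is not given in the sources used here, and what follows rests on the values alone. Scaled by a length per gene and a total per library, 100.0% of the values above 0 came to whole fragments (within 0.01), which gave the fragments, CPM and library totals used here, and no between-library normalization was seen. Genes above 0.5 CPM in at least 3 samples were tested (18753). FPKM were divided by TMM factors (trimmed 30% on M and 5% on A, computed over tested genes), 0.1 was added, and log2 values were fitted with limma 3.58.1 in R 4.3.3 (default eBayes, two-sided) with one mean per time point over all 45 samples. The code was tested on simulated data. Tables were made with Python 3.11.15.

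The 9 genes, the pathway and marker lists and the tests were chosen with earlier results of these data known. Named from each pathway list were up to 3 genes with the smallest unadjusted p on day 14 vs. day 0, and PER1, DUSP1, FKBP4, NR3C2, HSD11B1 and IL1B. For each of the 9 genes the 2 most alike were named. MT2A, MS4A4A, TNF, CCL2, CCL4, FCGR3A and PF4, also on the lists, are not analysed here, and HIF3A, 8 repressed genes and 6 cortisol-handling genes fell under the filter.

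Animals were numbered by the labels, and each gave 1 sample per time point, so the numbers pair the samples. With time point means subtracted, 2 libraries of 1 animal had a mean r across genes of 0.328 (45 pairs), against −0.0382 for libraries of different animals (945 pairs). The sources name no sequencing batch. Alternatives were the scaling, the added constant, the filter, the animal as a block or random effect, the RNA integrity number that the study lists for each sample, robust eBayes, only the time points compared and each animal left out. Leaving out the libraries with over 30000 genes above 0, leaving out animals 4 and 9, and TMM over every gene above 0 were chosen after seeing the data.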

Additional observations from a re-analysis of the deposited data

How the results depend on the processing

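Of 810 recomputed log2 fold changes of the 9 genes, 718 kept their direction and side of the threshold, 39 changed sign (2 of these, NR3C1 and TSC22D3 on day 14 vs. day 3 without TMM, also passed the threshold), 39 newly passed it with the same sign and 14 no longer did. Of 1018 for the other named calls, 949 kept both and 69 kept the direction only. The causes were not tested unless stated. NR3C1 and SGK1 kept a negative sign on both later days in every alternative run, and lost a call in 2 cases, NR3C1 on day 3 without TMM (adjusted p = 0.0508) and SGK1 on day 14 with the RNA integrity number as covariate (−0.25, adjusted p = 0.432). The replicate block by animal changed no calls of the 9 genes other than those of CD163 and ANXA1.

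Without TMM scaling the 9 genes gave 1, 6 and 7 calls in the 3 comparisons (in the order day 3 and day 14 against day 0, then day 14 against day 3), the pathway lists 57 and 38 in the later 2, and all genes 1596, 9290 and 7206. On day 14 vs. day 0, ZBTB16, KLF9 and ANXA1 then changed sign (−0.12, −0.26 and −0.053), as did NR3C1 (−0.38), TSC22D3 (−0.38) and SGK1 (−0.23) on day 14 vs. day 3. The replicate block gave 3593 and 4446 genes in the first and last comparison, with 30 and 14 list genes and, in the last, 2 of the 9; the animal as random effect gave 3577 and 4430, 30 and 15, and 2. The RNA integrity number as covariate gave 1436, 3730 and 1135 genes, 1 of the 9 and 23 list genes on day 14 vs. day 0 with FKBP5 at 0.10, and 0 list genes between the later days. With the replicate block as well there were 4070 genes on day 14 vs. day 0 with FKBP5 at 0.085, 30 list genes on day 3, and 4 list genes and 1 of the 9 between the later days, beside 1838 of all genes.

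On day 14 vs. day 3, 2 of the 9 were called above 1 CPM in 15 samples, with only the time points compared, and without animals 4 and 9 in the block. In that comparison 1 was called without the libraries of animal 4 on day 14 and animal 9 on day 0, and 1 with TMM over every gene above 0. Of all tested genes these settings called, in order, 2655 of 14656, 2691 of 17785, 2980 of 18018, 3439 of 18113 and 2694 of 18753. No filter gave 4 list genes. In that comparison NR3C1 and TSC22D3, both called lower without TMM, were −0.023 and −0.027 with no filter and with TMM over every gene, −0.019 and −0.025 with integrity number and block, −0.0041 and −0.0088 with only these time points, and −0.020 and −0.00062 without animals 4 and 9; NR3C1 was −0.026 without those libraries.

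With each animal left out in turn, the calls ranged from 2 to 3, 2 to 3 and 0 to 2 of the 9 genes, from 16 to 23, 33 to 40 and 2 to 10 list genes, and from 1367 to 2362, 5915 to 6944 and 800 to 3102 of all genes, in the 3 comparisons. TSC22D3 then ranged from −0.090 to 0.025, −0.089 to 0.030 and −0.037 to 0.020, FKBP5 on day 14 vs. day 0 from −0.19 to 0.0085, and NR3C1 on day 14 vs. day 3 from −0.035 to 0.029.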
